A study of Mus musculus with 6 samples.

Results

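The genes described here are 8 calcium/calmodulin-dependent kinases, Camk2a, Camk2b, Camk2d, Camk2g, Camk1, Camk1d, Camk4 and Camkk2, out of 38293 genes listed for 6 mouse lymphomas. They were chosen by gene symbol, as a family around Camk2b, and Camk2b was itself selected on its near absence from the miR-146a-deficient tumors in these same data. Levels by genotype are therefore a description, with no p given for the 8 genes and nothing read from counts of calls among them. The lymphomas were analysed by RNA-sequencing to ask how loss of the microRNA miR-146a alters gene expression in tumors driven by Myc.

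All 6 tumors arose in C57BL6 mice carrying the Eμ-Myc transgene, in which the immunoglobulin heavy chain enhancer drives Myc in B-lineage cells. The 4 miR-146a-sufficient tumors (miR-146a+/+) came from mice labelled male. Sufficient replicates 1 and 2 were neck node tumors taken at 18 and 16 weeks of age, and sufficient replicates 3 and 4 were thymic tumors taken at 10 weeks. The 2 miR-146a-deficient tumors (miR-146a-/-) were thymic, taken at 11 and 10 weeks from mice labelled female. The deletion of miR-146a was germline, so every cell of the host lacked it, and the tumors were made into cell suspensions, not sorted. Genotype is therefore shared in full with labelled sex and in part with site and age, and these cannot be told apart. Each tumor is 1 animal, so the spread is between animals.

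The B cell receptor genes Cd79a and Cd79b stood at 388 RPKM or more in every tumor. RPKM is the number of reads on a gene, scaled for the length of the gene and for the depth of the library. Mir146 itself is listed at 0 in all 6 tumors and does not check the genotype labels. The sex label of deficient replicate 2 went against its RNA: the Y-linked gene Ddx3y stood at 24.6 RPKM there, at 17.9 to 23.0 RPKM in the sufficient tumors and at 0.130 RPKM in deficient replicate 1. Relative depth, read from the steps between low values and set to 1 in the shallowest tumor, ranged from 1 to 2.72, with 2.31 and 1.61 in the deficient tumors.

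A rise in cell calcium loads calmodulin, and calcium/calmodulin then switches these kinases on. Camk2a, Camk2b, Camk2d and Camk2g encode the alpha, beta, delta and gamma subunits of CaMKII, which assemble into a multi-subunit holoenzyme that can phosphorylate itself and so outlast the calcium signal. The alpha and beta subunits are best known from neurons, and the delta and gamma subunits are found in many tissues. Camkk2 encodes an upstream kinase that activates CaMKI, CaMKIV and AMPK. Camk1 and Camk1d encode CaMKI kinases, and Camk4 encodes CaMKIV, a largely nuclear kinase known from T cells and neurons. In lymphocytes calcium enters after antigen receptor signaling.

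The mature miR-146a-5p sequence (RefSeq, GRCm38.p6, chr11:43374435-43374456, minus strand) is shown because its loss defines the deficient tumors. The capitals mark its seed, bases 2 to 8. The other sequences are the 2 seed matches in the 3′UTR of Camk1d, the kinase gene with the most of them, with the matching 7 bases in capitals, at positions 938 and 1828 of the UTR.

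miR-146a-5p: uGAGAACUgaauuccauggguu

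Camk1d, position 938: atgaaactctGTTCTCAgctatgcact

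Camk1d, position 1828: ggtataccctGTTCTCAtgtgtatcaa

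The longest annotated 3′UTR of each gene was searched on the sense strand for AGTTCTC, which pairs with bases 2 to 8, and for GTTCTCA, which pairs with bases 2 to 7 and adds an A. The motifs overlap, and joined matches were counted once. Camk1d held 2 matches in 5526 bases and Camk2a held 1 in 3372 bases. Camk2b held 0 in 2184 bases, and the other 5 genes held 0 as well. At least 1 match was present in 2140 of 10707 tested genes with a 3′UTR (20.0%). A match is a description of letters and not a site, and the lack of one says only that these letters are not in that window.

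Camk2b (chr11:5969644-6066362, minus strand, GRCm38, here and below with GENCODE M21 gene bounds) lies 37.3 Mb from Mir146 on the same chromosome. Its RPKM was 4.19, 1.15, 4.39 and 8.28 in sufficient replicates 1 to 4, and 0.0244 and 0.0220 in the deficient tumors. Both deficient tumors lay below every sufficient tumor. The mean was 4.50 ± 2.92 RPKM (SD, n = 4) against 0.0232 ± 0.00169 RPKM (SD, n = 2), which is 194-fold higher in the sufficient tumors. Even the lowest sufficient tumor, replicate 2, stood 47.0-fold above the higher deficient tumor. Read on the steps, and with the full exon length of the gene, these levels correspond to about 722 to 2107 reads per sufficient tumor and to about 13.0 and 8.20 reads in the deficient tumors. With the length of the longest transcript the deficient tumors come to about 5.82 and 3.66 reads. The gene lengths behind the values are not given in the sources used here, so these read numbers are estimates, and the low levels carry large counting error. The fold is accordingly loose, and in bulk RNA fewer cells with the transcript and less of it per cell cannot be told apart.

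**Figure D1:**
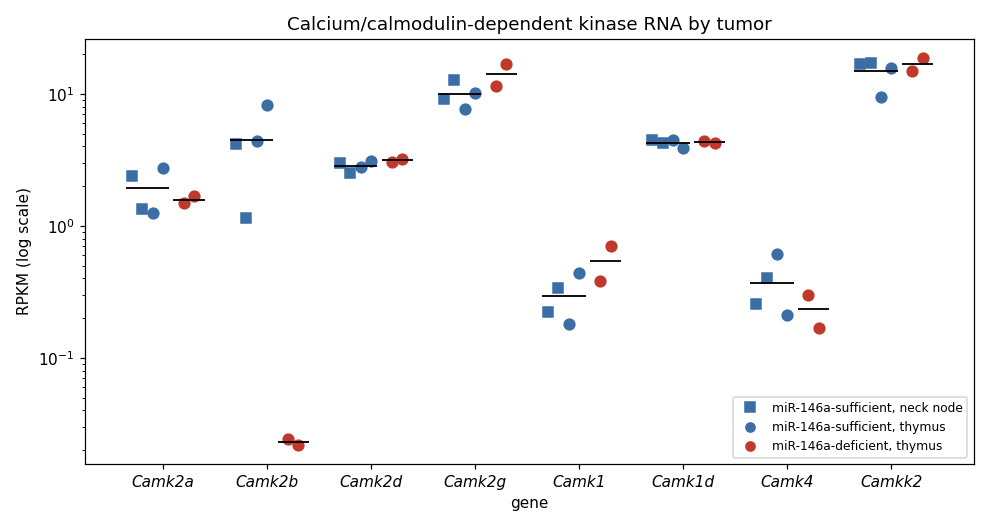
RPKM (log scale) of the 8 genes in each of the 6 tumors; squares are neck node and circles thymic tumors, blue is sufficient, red is deficient, and horizontal lines are group means. The red points of Camk2b lie near 0.02 RPKM, below all blue points, and for the other 7 genes the red and blue points overlap.

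The other 3 CaMKII genes overlapped between the groups. Camk2g (chr14:20734875-20794088, minus strand), the gamma subunit, was the most abundant of the 4 in all 6 tumors. It measured 9.20, 12.7, 7.71 and 10.2 RPKM in the sufficient tumors and 11.5 and 16.9 RPKM in the deficient ones. Deficient replicate 2 was the highest, and sufficient replicate 2 lay above deficient replicate 1, so the groups overlapped. The means were 9.95 ± 2.09 (SD, n = 4) and 14.2 ± 3.85 RPKM (SD, n = 2). Camk2d (chr3:126596302-126846326, plus strand), the delta subunit, measured 2.99, 2.53, 2.78 and 3.08 RPKM in the sufficient tumors and 3.06 and 3.22 RPKM in the deficient ones. Its values lay close together and the groups overlapped. Camk2a (chr18:60925618-60988152, plus strand), the alpha subunit, measured 2.39, 1.35, 1.25 and 2.76 RPKM against 1.48 and 1.67 RPKM. Both deficient tumors lay inside the sufficient range.

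RPKM is scaled for length, so the 4 CaMKII genes can be added within a tumor. The shares depend on the gene lengths used, which are not given in the sources used here. Full exon length and longest transcript are 22493 and 5524 bases for Camk2d, and 9125 and 4125 bases for Camk2b. The shares below hold for the RPKM as listed. Camk2b made up 22.3%, 6.47%, 27.2% and 34.0% of the CaMKII sum in sufficient replicates 1 to 4. In the deficient tumors it made up 0.152% and 0.101%. The share of Camk2g was 49.0%, 71.6%, 47.8% and 41.9% in the sufficient tumors and 71.5% and 77.5% in the deficient ones, and sufficient replicate 2, where Camk2b was lowest, lay beside the deficient tumors. The CaMKII sum was 19.2 ± 3.55 RPKM (SD, n = 4) in the sufficient tumors and 18.9 ± 4.09 RPKM (SD, n = 2) in the deficient ones. Without Camk2b the sum was 14.6, 16.6, 11.7 and 16.0 RPKM against 16.0 and 21.8 RPKM. The groups overlapped with and without Camk2b.

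**Figure D2:**
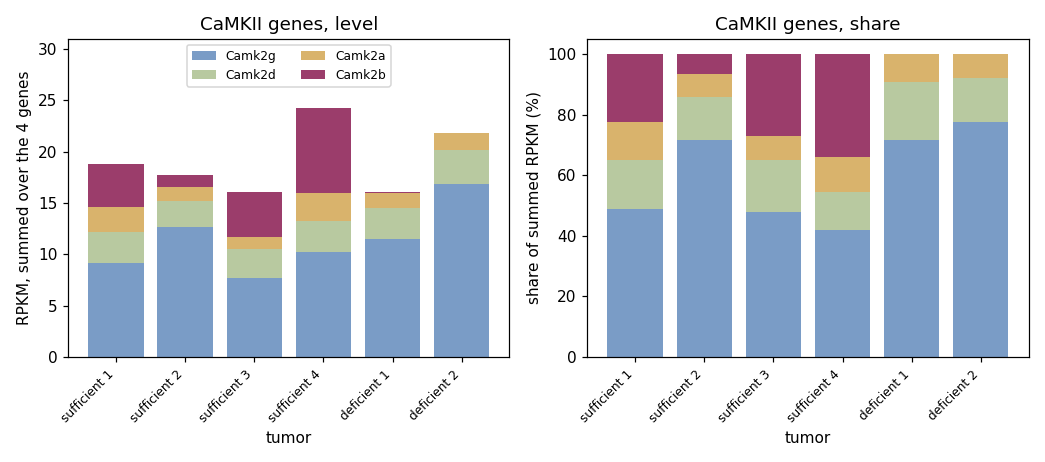
Stacked bars of the 4 CaMKII genes in each tumor, as RPKM (left) and as a share of their sum in percent (right). The Camk2b segment is 6.47% to 34.0% of the sum in the sufficient tumors and too thin to see in the deficient ones, while the summed height overlaps between groups.

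Camkk2 (chr5:122731170-122779409, minus strand), the upstream kinase, had the highest RPKM of the 8 genes in every tumor. It measured 16.8, 17.2, 9.41 and 15.7 RPKM in the sufficient tumors and 15.0 and 18.6 RPKM in the deficient ones. Sufficient replicate 3 stood low and the groups overlapped. The means were 14.8 ± 3.64 (SD, n = 4) and 16.8 ± 2.56 RPKM (SD, n = 2).

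Of the CaMKI and CaMKIV genes among the 8, Camk1d was above 1 RPKM in every tumor and Camk1 and Camk4 were below it. Camk1d (chr2:5293457-5714515, minus strand) measured 4.48, 4.25, 4.47 and 3.86 RPKM in the sufficient tumors and 4.39 and 4.22 RPKM in the deficient ones. All 6 values were close, and its 3′UTR holds 2 of the seed matches printed above. Camk1 (chr6:113334124-113343984, minus strand) measured 0.223, 0.337, 0.180 and 0.439 RPKM against 0.381 and 0.709 RPKM. Deficient replicate 2 was highest and deficient replicate 1 lay within the sufficient range. Its exons overlap those of the DNA repair gene Ogg1, and whether the counting used strand is not given in the sources used here, so reads from the overlap may not be told apart. Camk4 (chr18:32934931-33191228, plus strand) measured 0.255, 0.404, 0.608 and 0.212 RPKM against 0.300 and 0.168 RPKM, and it overlaps the gene 2310026I22Rik. The groups overlapped for Camk4 as well. At about 31.6 to 172 reads for Camk1 and 18.9 to 88.9 reads for Camk4 per tumor, both genes were low in all tumors.

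The order of levels was Camkk2, then Camk2g, in all 6 tumors. Camk1d came next in 5 of 6, and in sufficient replicate 4 Camk2b came before it. In the sufficient tumors the ranges of Camk1d and Camk2d did not overlap, whereas Camk2b overlapped both of these neighbours. Camk2d overlapped Camk2a, and Camk1 overlapped Camk4. In both deficient tumors Camk2b was last, below Camk1 and Camk4. These orders are of RPKM as listed and, like the shares, depend on gene lengths that are not given in the sources used here.

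Differences between groups were fitted with limma on log2(RPKM + 1), for genes with at least 0.5 RPKM in at least 2 tumors. This scale understates the difference of genes with low values. The filter kept 6 of the 8 genes and left out Camk1 and Camk4. Camk2b passed it only through the sufficient tumors. The deficient minus sufficient difference was -2.25 (SE 0.50) for Camk2b and 0.47 (SE 0.26) for Camk2g. It was 0.20 (SE 0.28) for Camkk2, 0.11 (SE 0.22) for Camk2d, 0.01 (SE 0.22) for Camk1d and -0.15 (SE 0.29) for Camk2a. The median over all 12751 genes tested was 0.13, which puts small positive differences near the middle of all genes. After median-ratio scaling of the tumors the median was -0.01 and the differences were -2.29 for Camk2b, 0.31 for Camk2g, 0.04 for Camkk2, -0.02 for Camk2d, -0.13 for Camk1d and -0.26 for Camk2a. Camk2d and Camk1d thus changed sign with the scaling.

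At an adjusted p of 0.05 limma called 0 of the 6 genes between genotypes, where 0.0627% of all genes tested were called. At an unadjusted p of 0.05 the count was 1 of the 6, where it was 3.62% of all genes tested. This 1 was Camk2b, whose selection on these values, and passage of the filter through the sufficient tumors alone, fixed that outcome. The groups did not overlap for 1 of the 8 genes, again Camk2b, against 11.2% of all genes tested in either direction and 2.09% with the deficient tumors lower. The choice of genes used this contrast, so nothing is read from these counts. The paper, with a method based on read counts, places Camk2b among the genes that differed most between these tumors. It also found Camk2b different by RT-qPCR in a larger set of tumors, which is not part of the data used here. Without deficient replicate 2, whose sex label was in doubt, and likewise without each other tumor in turn, the Camk2b difference lay between -2.64 and -1.94. Among the thymic tumors alone it was -2.79.

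The spread among the 4 sufficient tumors also differed between the genes. The SD of log2(RPKM + 1) was 0.87 for Camk2b, which ranged 7.22-fold in RPKM from replicate 2 to replicate 4. This was a wider spread than in 96.2% of all genes tested, and wider than in 94.7% of 2256 genes of like level. In contrast, Camk1d and Camk2d had SDs of 0.08 and 0.09, and only 2.17% and 2.93% of genes tested had a smaller one. The SDs of Camk2g, Camk2a and Camkk2 were 0.27, 0.37 and 0.38, with a median over all genes of 0.30. The spread of Camk2b within the sufficient group is a description, since Camk2b was chosen on these tumors.

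Tumor site was not used to choose the genes, and the 2 neck node and 2 thymic tumors of the sufficient group allow a test of it. Age differs with site and cannot be told apart from it. Camk2b averaged 2.67 RPKM in the neck node tumors and 6.33 RPKM in the thymic ones. Its neck node minus thymus difference was -1.08 (SE 0.49, 95% confidence interval -2.26 to 0.10), limma adjusted p = 0.636. Camkk2 averaged 17.0 RPKM in the neck node tumors and 12.5 RPKM in the thymic ones, a difference of 0.45 (SE 0.30, interval -0.27 to 1.17, limma adjusted p = 0.706). For Camk2g the difference was 0.26 (interval -0.43 to 0.95). Those of Camk2a, Camk2d and Camk1d were -0.04 (interval -0.92 to 0.84), -0.06 (interval -0.72 to 0.59) and 0.06 (interval -0.58 to 0.69). None of these intervals excluded 0.

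Between sites limma called 0 of the 6 genes at an adjusted p of 0.05, where 0.155% of all 12255 genes tested were called, and 0 of the 6 at an unadjusted p of 0.05, where 7.87% were. The sites did not overlap for 2 of the 8 genes, Camk2b and Camkk2, in a setting where 40.4% of all genes tested did not overlap. With 2 tumors a site, intervals of this width leave sizeable differences in either direction possible.

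**Figure D3:**
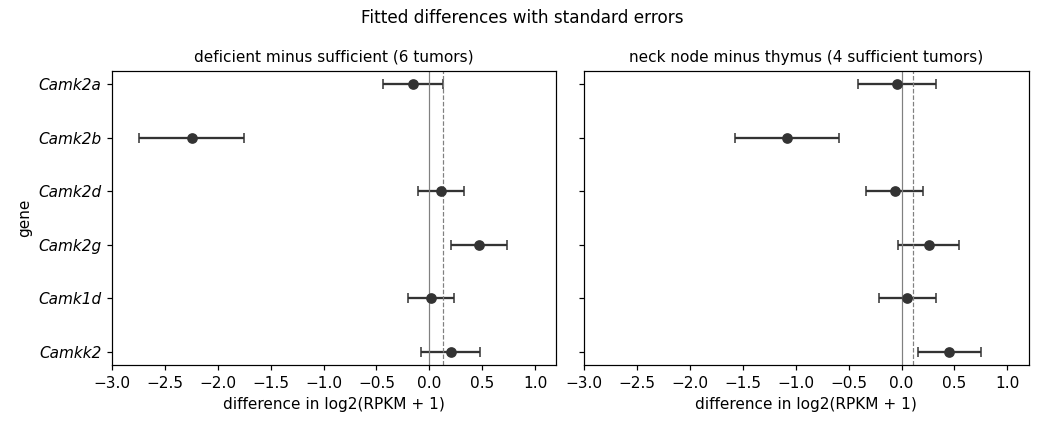
Fitted differences in log2(RPKM + 1) of the 6 genes that passed the filter, deficient minus sufficient (left) and neck node minus thymus among sufficient tumors (right); points are estimates, bars 1 standard error, the solid line 0 and the dashed line the median of all genes tested. Camk2b lies at -2.25 on the left and -1.08 on the right, and the other 5 genes lie between -0.15 and 0.47.

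The genes whose pattern over the 6 tumors was most like that of Camk2b, by Pearson r of log2(RPKM + 1), were Tnfrsf18 (r = 0.98), Pkig (0.98), Aldh3b1 (0.98) and the pseudogenes Rpl21-ps7 (0.97) and Gm6177 (0.97). Tnfrsf18 encodes the receptor GITR, Pkig an inhibitor of protein kinase A, and Aldh3b1 an aldehyde dehydrogenase. Aldh3b1 measured 17.6, 8.95, 13.4 and 22.9 RPKM in the sufficient tumors and 5.54 and 6.76 RPKM in the deficient ones. Like Camk2b, it was lowest of the sufficient group in replicate 2 and highest in replicate 4. The r does not measure the size of the fall, and these genes were lower in the deficient tumors without the near absence of Camk2b. Pkig measured 30.8 and 25.3 RPKM there and 35.6 to 55.6 RPKM in the sufficient tumors. Tnfrsf18 measured 1.03 and 0.868 RPKM against 1.29 to 1.90 RPKM. With 6 points from the same libraries, the deficient 2 lowest in every such gene, many genes can reach a high r. The other kinases were less like Camk2b, from 0.56 for Camk2a to -0.75 for Camk2g.

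In all, 6 lists of calcium and calmodulin genes were set beside the 8 kinases. The lists name 123 genes, among them Hdac4, which was not analysed here, and 76 passed the filter. Between genotypes limma called 0 of the 76 at an adjusted p of 0.05 and 7 at an unadjusted p of 0.05, where 3.62% of all genes tested were. The difference was positive for 59 of the 76 (77.6%), against 67.6% of all genes tested, and the median was 0.19 against 0.13. The groups did not overlap for 13 of the 76 (17.1%), with the deficient tumors higher in 12, against 11.2% of all genes tested in either direction. Between sites 74 were tested, with 0 called by limma, 6 at an unadjusted p of 0.05, where 7.87% of all genes tested were, and a median of 0.24 against 0.10 for all genes.

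In the list headed other calmodulin-dependent kinases, 9 of 21 genes were tested, 8 differences were positive and the median was 0.33. The list also holds related kinases that are not calmodulin-dependent, Mapkapk2 among them, so the median is not one of calmodulin-dependent kinases alone. Camkv, a kinase-like protein without activity, had the most positive difference, 0.99 (SE 0.91). It measured 30.8, 6.77, 3.77 and 18.8 RPKM in the sufficient tumors and 8.01 and 65.7 RPKM in the deficient ones, so the deficient tumors lay far apart. Phkg2, a catalytic subunit of phosphorylase kinase, differed by 0.46 (SE 0.23) and Mapkapk2, the most abundant of the list, by 0.33 (SE 0.22). Both deficient tumors lay above the sufficient ones for these 2 genes, and neither passed the test. Dapk3, a death-associated protein kinase, and Dclk2, a doublecortin-like kinase, were at the low end with -0.33 (SE 0.30) and 0.08 (SE 0.64). Of the closest relatives of the 8 genes, Camkk1 averaged 0.359 ± 0.165 RPKM (SD, n = 4) against 0.533 ± 0.0848 RPKM (SD, n = 2), and Camk1g and Pnck were at most 0.0754 and 0.0953 RPKM in any tumor.

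Calmodulin itself was abundant. Calm2, a calmodulin gene, measured 295, 228, 247 and 287 RPKM in the sufficient tumors and 209 and 155 RPKM in the deficient ones. The deficient tumors lay below all sufficient ones, with a difference of -0.54 (SE 0.23, limma adjusted p = 0.893). The calmodulin-binding protein gene Nrgn measured 1.12, 0.308, 0.704 and 0.559 RPKM against 2.06 and 4.00 RPKM. It was higher in both deficient tumors than in any sufficient one, and did not pass the test (1.25, SE 0.30, limma adjusted p = 0.818). Of the inhibitors of CaMKII, Camk2n2 averaged 1.15 ± 0.156 RPKM (SD, n = 4) against 1.10 ± 0.0701 RPKM (SD, n = 2), and Camk2n1 was at most 0.671 RPKM. Ppm1e, a phosphatase of CaM kinases, and Marcks, a calmodulin-binding membrane protein gene, differed by 0.50 (SE 0.36) and -0.20 (SE 0.33). The median of the 8 tested of 14 genes was -0.03, with 3 positive.

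In the calcineurin and NFAT list, the calcium-dependent phosphatase branch, 13 of 19 genes were tested, 10 differences were positive and the median was 0.10. Ppp3ca, a catalytic subunit of calcineurin, differed by 0.40 (SE 0.29) and the transcription factor gene Nfatc1 by 0.25 (SE 0.35). Nfatc3 was the most abundant gene of the list, at 34.6 ± 4.64 RPKM (SD, n = 4) against 36.4 ± 0.359 RPKM (SD, n = 2). The scaffold genes Homer1 and Homer3 differed by -0.17 (SE 0.25) and -0.05 (SE 0.26).

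For calcium release and store-operated entry, 19 of 24 genes were tested, 16 differences were positive and the median was 0.18. The calcium pump genes Atp2a2 and Atp2a3 differed by 0.49 (SE 0.31) and 0.46 (SE 0.23), and Atp2a3 measured 95.7, 127, 82.3 and 83.8 RPKM against 136 and 128 RPKM. For Atp2a3 the groups did not overlap, by a narrow margin. The channel gene Orai3 differed by 0.48 (SE 0.32). The phospholipase genes Plcg1 and Plcg2, the latter acting below the B cell receptor, differed by -0.23 (SE 0.28) and -0.04 (SE 0.31).

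Voltage-gated calcium channel genes were mostly low, and 5 of 19 were tested, with 3 positive and a median of 0.03. Cacna1h, a T-type channel gene that the study also picked out from these tumors, measured 0.120, 0.0484, 0.0201 and 0.0418 RPKM in the sufficient tumors and 1.27 and 1.47 RPKM in the deficient ones. Both deficient tumors lay far above the sufficient ones, the reverse of Camk2b, with a difference of 1.16 (SE 0.20, limma adjusted p = 0.280). With no filter on low values its adjusted p was 0.0177. Cacna1h passed the filter only through the deficient tumors and was picked out on these tumors, so neither value is support for its difference. The paper also reports differential Cacna1h by RT-qPCR in a larger set of tumors, which is not part of the data used here. The L-type channel gene Cacna1d measured 0.207, 0.702, 0.217 and 0.553 RPKM against 1.07 and 1.52 RPKM, a difference of 0.70 (SE 0.24, limma adjusted p = 0.893). Cacna1i, the most abundant of the list, and Cacnb1 differed by -0.44 (SE 0.52) and -0.30 (SE 0.31).

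In the list headed targets of CaM kinases, 22 of 26 genes were tested, 19 differences were positive and the median was 0.31. Mef2c, a transcription factor gene held in check by class II histone deacetylases, measured 7.73, 9.53, 6.98 and 4.05 RPKM in the sufficient tumors and 18.6 and 10.1 RPKM in the deficient ones. Both deficient tumors lay above the sufficient ones, with a difference of 0.92 (SE 0.35, limma adjusted p = 0.893). The deacetylase gene Hdac9 had a difference of 0.97 (SE 0.50), but its highest value, 3.36 RPKM, was in sufficient replicate 4. Mef2d, the most abundant of the list, differed by 0.43 (SE 0.33). Hdac5 and Crem, a transcription factor gene related to Creb1, differed by -0.13 (SE 0.31) and -0.12 (SE 0.22). The list mixes kinase substrates with other genes of the same pathways, such as Stk11 and Prkab1, and their RNA does not measure kinase activity.

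**Figure D4:**
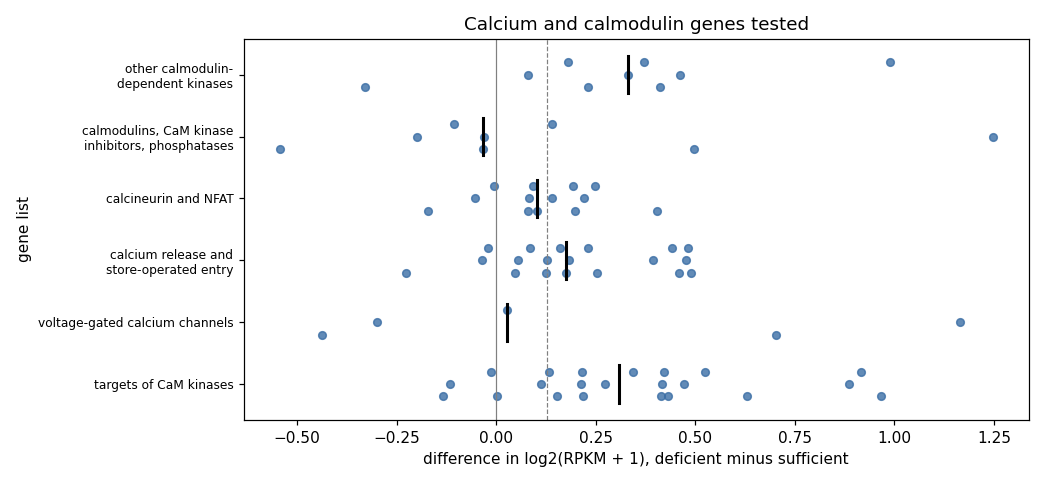
Differences in log2(RPKM + 1), deficient minus sufficient, of the 76 tested genes in the 6 calcium and calmodulin lists; each point is 1 gene, black bars are list medians, the solid line is 0 and the dashed line the median of all genes tested. Medians run from -0.03 to 0.33, and Nrgn and Cacna1h are the points furthest to the right.

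Marker genes of other cells were summed in each tumor, since the suspensions were not sorted. Pro-B and pre-B cell markers, 9 genes, summed to 14.4, 20.7, 45.9 and 106 RPKM in the sufficient tumors and to 8.89 and 3.23 RPKM in the deficient ones. The sum was lower in both deficient tumors and highest in sufficient replicate 4, but only 1 of the 9 genes, the interleukin 7 receptor gene Il7r, was itself lower in both deficient tumors than in every sufficient one. Without Il7r, a choice made after the values were seen, the sum was 3.58, 15.5, 42.9 and 65.2 RPKM against 7.31 and 0.966 RPKM, and the groups overlapped. T cell markers, 12 genes, summed to 79.5, 27.8, 53.0 and 34.8 RPKM against 18.2 and 22.3 RPKM. Their sum was lower in both deficient tumors, as were 4 of the 12 genes taken singly. Over all genes tested, 2.09% were lower in both deficient tumors than in every sufficient one. Neither count, 1 of 9 or 4 of 12, was tested against this share. The part of either cell type in the Camk2b difference was not tested.

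Markers of neurons, the cells best known for Camk2b, gave a sum of 11.5, 2.01, 2.22 and 12.3 RPKM in the sufficient tumors and of 0.469 and 12.7 RPKM in the deficient ones. Most of this sum was Tubb3, which stood at 12.4 RPKM in deficient replicate 2. The defining markers Snap25, Syt1 and Rbfox3 were at most 0.00435 RPKM in any tumor. For skeletal muscle, where CaMKII is also known, the sum was 5.30 to 11.0 RPKM against 7.14 and 14.2 RPKM, with Acta1 and Ckm at most 0.353 RPKM and Myh1 listed at 0 throughout.

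Of the remaining lists, macrophage markers summed to 26.4 to 74.9 RPKM in the sufficient tumors and to 91.4 and 131 RPKM in the deficient ones. Taken singly, 7 of the 12 macrophage genes were higher in both deficient tumors than in every sufficient one. Of all genes tested, 11.2% did not overlap in either direction. Neutrophil markers followed site, with 1643 and 1691 RPKM in the neck node tumors and 108 to 277 RPKM in the 4 thymic ones, and salivary gland markers did so too, with 72.1 and 68.6 RPKM against 0.245 to 1.28 RPKM. The B cell sum was 1320 to 2034 RPKM against 2283 and 1376 RPKM, and the erythroid sum 22.4 to 196 RPKM against 14.7 and 47.4 RPKM. Fibroblast sums were 3.17 to 12.8 RPKM against 8.69 and 20.6 RPKM, endothelial sums 9.99 to 22.7 RPKM against 15.1 and 23.6 RPKM, and thymic epithelial sums 0.514 to 1.06 RPKM against 1.03 and 3.11 RPKM. Most of the endothelial sum was Pecam1, at 9.51 to 22.9 RPKM, and the other 5 endothelial markers were below 1 RPKM in every tumor. The part of these cells in the levels of the 8 kinases was not tested.

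**Figure D5:**
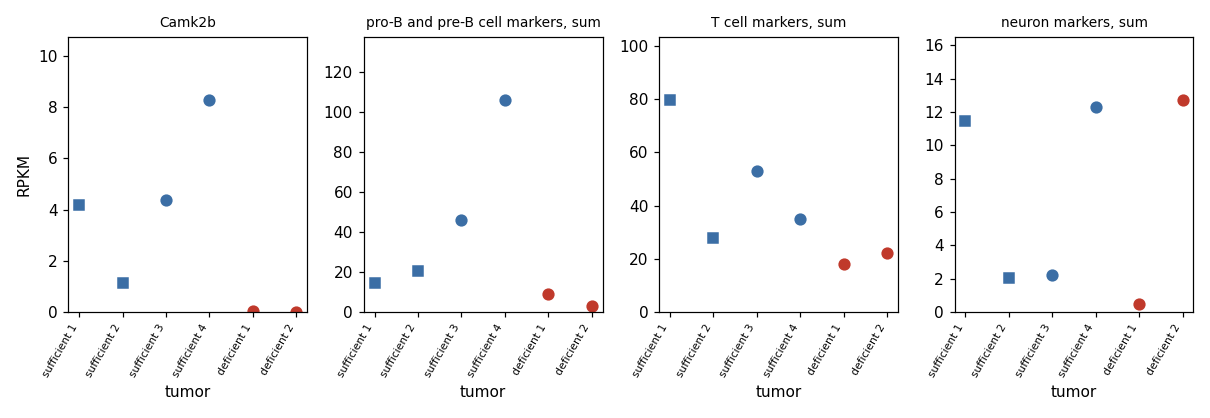
RPKM of Camk2b and summed RPKM of pro-B and pre-B cell, T cell and neuron markers in each tumor; squares are neck node and circles thymic tumors, blue is sufficient and red deficient. Camk2b, the pro-B and pre-B cell sum (with Il7r) and the T cell sum are lower in both deficient tumors than in any sufficient tumor, whereas the neuron sum is highest in deficient replicate 2.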

How the data were processed

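RNA from 4 miR-146a-sufficient and 2 miR-146a-deficient Eμ-Myc tumors was measured by RNA-sequencing, with 2 technical runs per tumor according to the labels. The authors used STAR 2.3.0 to align 100-base reads, single-end, to the mm10 build (GRCm38), and HTSeq 0.5.4p3 to count reads by Ensembl gene. The submitters' processing notes also name DESeq 1.12.1. The deposited values are RPKM, 1 per gene and tumor, and the gene lengths used for them are not given in the sources used here. No counts were used, so no count model was run.

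Low values of single-transcript genes, multiplied by exon length less 99 bases, fell on 2 steps per tumor, and 48.6 to 52.4% of them lay within 0.5% of a sum of steps, where such sums cover 1.56 to 2.05% of the range. A step was taken as 1 read. This gave relative depth and approximate read numbers, with GENCODE M21 lengths. It was found after the data were examined.

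limma 3.58.1 in R 4.3.3 (empirical Bayes with trend) was fitted to log2(RPKM + 1) of genes with at least 0.5 RPKM in at least 2 of the tumors compared, with Benjamini-Hochberg adjustment over all genes tested and a threshold of 0.05. The fit was run on simulated data with large differences added to genes of higher level. That run does not check how the fit behaves for low genes or small differences. The members and lists were chosen with earlier results of these data known. The genes named are the 8 kinases and, from each list, the genes past the threshold, the 2 most positive and 2 most negative differences and the most abundant gene. Camk1g, Pnck, Camkk1, Camkv, Camk2n1, Camk2n2, the 5 genes most like Camk2b and leading cell type markers are named as well. 3′UTRs came from GENCODE M21 and the miRNA sequence from RefSeq. Hdac4 was not analysed here, and some genes that fall under the naming rule are not reported here.

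Alternatives changed the filter, pseudocount, trend, scaling, site, replicate block and tumors included.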

Additional observations from a re-analysis of the deposited data

How the results depend on the processing

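The RPKM table gives no counts, and with 2 deficient tumors and 2 tumors a site, small differences could not be resolved. Camk2b stayed lower in the deficient tumors under every alternative run, an outcome fixed by its selection on these values and no support for the difference. Its difference was -4.93 with a pseudocount of 0.1 and -0.87 with a pseudocount of 5, by construction of the scale, and -2.64 to -1.94 with 1 tumor left out. Between sites, none of the 6 kinases passed the test under any alternative run. Over all genes, genotype calls numbered 8, with 3 when the thymic tumors alone were used, 3 when site entered as a covariate, and from 4 to 9 when each tumor was omitted in turn (4 without sufficient replicate 3, 5 without either deficient tumor). Site calls numbered 19, and 0 with no filter on low values (1388 at an unadjusted p of 0.05 by limma), and 11 to 67 with 1 tumor left out (67 without sufficient replicate 2, 32 without replicate 1 and 11 without replicate 4). The Camk2b share in the deficient tumors was 0.0580% among all 8 kinases, and with 1 tumor left out its CaMKII share was 18.7 to 27.9% in the sufficient and 0.101 to 0.152% in the deficient tumors. The site difference turned positive for Camk2a without sufficient replicate 2 (0.22) or 4 (0.33), over a range of -0.41 to 0.33 with 1 tumor left out, and for Camk2d without replicate 2 (range -0.15 to 0.023). It turned negative for Camk1d with median-ratio scaling (-0.064) and without replicate 4 (range -0.030 to 0.14). The median genotype difference of the list headed other calmodulin-dependent kinases was 0.054 with no filter on low values. That of the voltage-gated channels was 0.20 with a filter of 1 RPKM, 0.26 in thymic tumors alone and -0.082 to 0.35 with 1 tumor left out, highest without sufficient replicate 2. The cause of these shifts was not tested.

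Replicate numbers were not taken as pairs in the main fit. Deviations of same-numbered tumors correlated across genes at 0.02 and 0.21. The deviations of the 2 deficient tumors mirror each other, and differently numbered tumors were not compared, so these values cannot show whether the tumors were paired. With the replicate block 1 gene was called between genotypes, and the Camk2b difference was -1.71. Only tumors whose number occurs in both groups inform the genotype difference in that fit. They are sufficient replicates 1 and 2, both neck node, and the 2 deficient tumors, both thymic. Genotype is shared in full with site and age among them, so the blocked difference cannot be assigned to genotype.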
